A study of Arabidopsis thaliana with 6 samples.

Results

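Pentatricopeptide repeat (PPR) protein genes were followed in rosette leaves of Arabidopsis thaliana wild type (WT) and of the mutant ibm1-3. The members were the 187 genes, of 22446 in the table of high light pair 1, that its annotation describes as belonging to the PPR superfamily. Of them, 28 carry a symbol of their own, and 186 also had values in the table of high light pair 2 and in the low light table. AT1G63330 was absent from the pair 2 table and had no values in the low light table, and stood at 0.3 FPKM (fragments scaled to transcript length and library size) in WT and 0.46 FPKM in ibm1-3 in pair 1. Another 60 genes described as pentatricopeptide in other words and 265 genes described as TPR-like were not members.

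PPR proteins are encoded in the nucleus, and most are imported into chloroplasts or mitochondria. Each repeat contacts 1 base of RNA, so that a protein binds a particular stretch of an organelle transcript and allows its editing, splicing, end processing, stability or translation. Proteins that end in the DYW domain belong to the RNA editing class, since this domain carries the cytidine deaminase that changes C to U.

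All plants were of the Columbia ecotype, grown in long days. The low light groups were 1 WT library and 1 ibm1-3 library from leaves of 40 days. The high light groups were 2 WT and 2 ibm1-3 libraries from leaves of 30 days after 48 hours of high light, and each numbered WT and ibm1-3 pair has a table of its own. IBM1 encodes a jumonji histone demethylase that removes methylation of lysine 9 of histone H3 from transcribed genes, and the ibm1-3 plants carry a mutant allele. Age, light and normalization differ together between the low and high light tables and cannot be told apart. The labels do not say that numbered libraries came from separate plants, so p-values cover only how these libraries vary, and that may be technical variation.

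Most members are genes without introns in their coding part. In the RefSeq annotation of TAIR10.1, 152 of the 187 (81.3%) had 1 coding exon, against 20.5% of the genes of the same table. Their proteins had a median of 622 residues, from 195 to 1440, against 373 for the genes of the table. The members lay on all 5 chromosomes, 55 on chromosome 1, 23 on chromosome 2, 39 on chromosome 3, 25 on chromosome 4 and 45 on chromosome 5. A protein ending in the residues D, Y and W was encoded by 24 members, of 58 such genes in the table. The word TGGGCC, the core of the site II element found before many plant genes of organelle function, was searched on both strands of the 250 bases before each annotated gene start. It was found for 41 members (21.9%), 15.5% of the genes of the table and 13.7% of 27444 protein-coding genes. The telo-box word AAACCCTA was found for 9 members (4.81%) and 3.87% of the genes of the table. A match is a description of letters in the window, not of a factor bound there.

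The windows of 3 members among the 10 with the highest fold changes held the site II word, and they are shown here because the sequence stands beside a measured difference. They are RefSeq sequence of TAIR10.1, each 250 bases long, written 5′ to 3′ along the gene, with the site II word in capitals as it reads on that strand (GGCCCA is TGGGCC on the other). The capitals begin 83 bases before the annotated start of AT2G17525, 151 before that of AT4G35850 and 149 before that of AT1G08610.
AT2G17525 (chr2:7623576-7623825, forward strand): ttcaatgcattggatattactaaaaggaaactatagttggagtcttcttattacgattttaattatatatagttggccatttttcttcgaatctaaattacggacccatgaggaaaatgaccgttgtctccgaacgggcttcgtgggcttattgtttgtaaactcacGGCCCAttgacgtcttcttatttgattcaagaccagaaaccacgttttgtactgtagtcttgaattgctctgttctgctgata
AT4G35850 (chr4:16983275-16983524, forward strand): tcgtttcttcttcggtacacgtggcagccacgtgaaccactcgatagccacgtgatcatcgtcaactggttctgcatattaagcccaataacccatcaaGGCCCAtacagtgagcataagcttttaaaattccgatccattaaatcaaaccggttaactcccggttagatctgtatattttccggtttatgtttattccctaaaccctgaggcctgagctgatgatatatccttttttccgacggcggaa
AT1G08610 (chr1:2735820-2736069, reverse strand): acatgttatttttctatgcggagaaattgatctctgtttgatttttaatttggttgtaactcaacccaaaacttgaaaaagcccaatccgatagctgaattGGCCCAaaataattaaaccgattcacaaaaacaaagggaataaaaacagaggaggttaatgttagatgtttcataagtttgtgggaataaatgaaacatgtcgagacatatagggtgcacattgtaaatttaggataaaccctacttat
Of the 36 tested members with the word, 26 were called higher in ibm1-3 after high light and 1 lower (72.2% and 2.78%), with a median log2 fold change of 0.77. Of the 119 without it, 83 were called higher and 10 lower (69.7% and 8.4%), with a median of 0.67. Of all genes tested, 49.2% were called higher and 26% lower. The difference between members with and without the word was not tested.

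Sequencing depth was 12121246 and 12502408 estimated fragments in pair 1 and 15425082 and 13099267 reads in low light, WT first, and is not given for pair 2. IBM1 itself (AT3G07610) stood at 13.81 and 8.34 FPKM in WT and 17.6 and 7.46 FPKM in ibm1-3 after high light, and its log2 difference of 0.09 ± 0.13 (SE, n = 2 per genotype) gave a limma adjusted p of 0.526. In low light WT had 643 reads of it and ibm1-3 had 399. The transcript thus gave no check of the high light labels, and directions are stated for libraries labelled ibm1-3 against libraries labelled WT. The 4 leaf markers, RBCS1A, LHCB1.1, RCA and PSBO1, were the most abundant of the marker genes as is usual for leaf tissue. They summed to 18471 and 29042 FPKM in WT and to 3413 and 6122 FPKM in ibm1-3, and all 4 fell, LHCB1.1 with a log2 fold change of -3.96. The 4 flower markers summed to 1.83 and 0.86 FPKM in WT and 2.1 and 1.55 FPKM in ibm1-3, and they did not move together. SEP3 stood at 0.08 and 0.04 against 0.87 and 0.93 FPKM, and AG and AP3 were also higher in ibm1-3. PI was lower, at 1.75 and 0.65 FPKM in WT against at most 0.04 FPKM in ibm1-3, and made up most of the WT sums. The 6 markers of dividing cells summed to 2.52 and 1.95 against 3.53 and 2.66 FPKM. Of the 4 root markers, CASP1 and COBL9 had no values. EXPA7 had values in pair 1 only and CASP2 in pair 2 only, at most 0.07 FPKM. The part of these differences in the results on PPR genes was not tested. In bulk leaf RNA, fewer cells of a type and less RNA per cell cannot be told apart.

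PPR genes were expressed at low levels, and their level was higher in both ibm1-3 libraries after high light. The median member stood at 1.1 FPKM in WT and 2.49 FPKM in ibm1-3 in pair 1, and at 0.86 and 2.04 FPKM in pair 2. The median of all genes in the same libraries was 6.6 and 8.16 FPKM in pair 1 and 6.89 and 9.06 FPKM in pair 2. Members together took 0.0872% of the FPKM sum in WT and 0.132% in ibm1-3 in pair 1, and 0.0614% and 0.0946% in pair 2. In estimated fragments of pair 1 they took 0.119% in WT (14466 fragments, 95% Clopper-Pearson interval 0.117 to 0.121%) and 0.18% in ibm1-3 (22469 fragments, 0.177 to 0.182%). The median member rested on 30 fragments in WT and 65 in ibm1-3, so single members are measured with little precision. Intervals cover counting error only.

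Without any filter on level, 151 of the 186 members with both pairs (81.2%) were higher in ibm1-3 in each high light pair and 18 (9.68%) were lower in each. Of all 21437 genes in both tables, 56.7% were higher in each pair and 30.5% lower in each. Both ibm1-3 libraries lay above both WT libraries for 131 members (70.4%; 43% of all genes) and below them for 10 (5.38%; 21% of all genes). The log2 ratio of a member, computed as log2(FPKM + 1) in ibm1-3 minus WT, had a median of 0.58 in pair 1 and 0.54 in pair 2, against 0.17 and 0.21 for all genes. The ratios of the 2 pairs correlated at 0.89 across 155 members and at 0.96 across all genes tested, a description across genes that share these libraries.

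**Figure D1:**
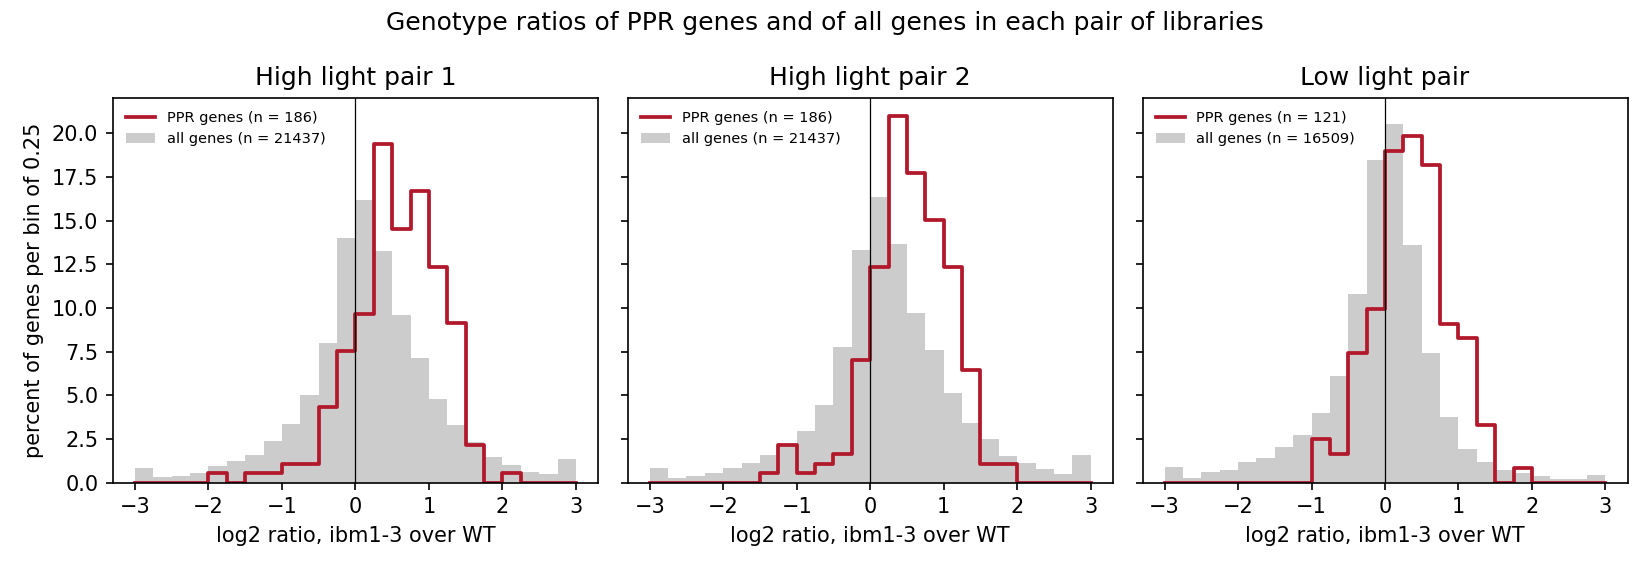
Percent of genes in bins of 0.25 of the log2 ratio of ibm1-3 over WT in each pair of libraries, with PPR genes as the red line and all genes as grey bars; ratios beyond 3 in either direction are counted in the end bins. The median of the PPR genes was 0.58 and 0.54 in the high light pairs and 0.40 in the low light pair, and that of all genes 0.17, 0.21 and 0.01.

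The high light comparison asked how each gene differed between genotypes, with limma on log2(FPKM + 1), the pair as a block and Benjamini-Hochberg adjustment over all genes at 0.05. On this scale the change of low genes is understated. With no filter on low values, 124 of 186 members were called higher, 10 lower and 52 neither (66.7% and 5.38%), against 42.8% of all genes called higher, 21.4% lower and 64.2% in either direction. With the filter of at least 1 FPKM in 2 libraries, 155 members were tested and 32 were not. Of those tested, 53 reached 1 FPKM in ibm1-3 libraries only and 0 in WT libraries only, so the filter itself favours members that are high in ibm1-3. In the filtered fit, 109 members rose, 11 fell and 35 did not pass, and 39 of the calls upward and 4 of those downward were at least 2-fold. Over all 17399 genes tested, 75.2% were called, 49.2% higher and 26% lower. The members' share of calls in either direction, 77.4%, was near this background, while their split between directions was not. Their median log2 fold change was 0.67, against 0.25 for all genes tested. Among members with a mean under 5 FPKM, 87 of 120 rose and 4 fell (72.5% and 3.33%), and among all genes of that level 52.1% rose and 15.1% fell (67.1% called). These shares are from the filtered fit, where genes that reached 1 FPKM in ibm1-3 libraries only could not be called lower. The split at this level is thus partly set by the filter. Among members of 5 FPKM or more, 22 of 35 rose and 7 fell, with a median of 0.42 against 0.19 for all genes of that level. Scaling by size factors, which moved the median of all genes from 0.251 to -0.041, left 78 of 144 members higher and 16 lower (54.2% and 11.1%, against 35% and 38.9% of all genes and 73.9% called in all), at a median of 0.45. When the replicate block was omitted, 56 members passed, 53 higher and 3 lower, and 26.6% of all genes did, 18.2% higher and 8.4% lower. With 1 library left out, in fits without the block, 7 members passed without WT replicate 1 (4.52%, against 7.93% of all genes) and 2 without WT replicate 2 (1.29%, against 7.14%). Without ibm1-3 replicate 1 there were 38 (24.5%, against 19.5%), and without ibm1-3 replicate 2 there were 51 (32.9%, against 19.4%).

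Related families had the same sign of median in the same fit, as did all genes tested (0.25). Of 51 tested genes described as pentatricopeptide in other words, 32 rose and 9 fell (62.7% and 17.6%), with a median of 0.54. Of 213 tested TPR-like genes 128 rose and 33 fell (60.1% and 15.5%), with a median of 0.51. Of all genes tested, 49.2% rose and 26% fell. The shares called in either direction, 80.4% and 75.6%, were near the 75.2% of all genes. By chromosome, the members' medians ran from 0.52 on chromosome 1 (48 tested) to 0.96 on chromosome 2 (15 tested). These differences between families and chromosomes were not tested.

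The named members are the 10 highest and 10 lowest log2 fold changes among called members with a mean of at least 2 FPKM. AT5G61370 (chromosome 5, 24671770 to 24673657), which has no symbol, stood at 2.04 and 1.13 FPKM in WT and 11.36 and 7.36 FPKM in ibm1-3. Both ibm1-3 libraries lay far above both WT libraries, and the difference of 2 ± 0.12 on the log2 scale (SE, n = 2 per genotype; limma adjusted p = 4.45e-06) was the highest of the members tested. AT1G20300 (chromosome 1, 7029629 to 7031535) stood at 4.48 and 4.43 FPKM in WT and 13.79 and 15.92 FPKM in ibm1-3, a rise of 1.54 ± 0.11. AT2G17525, with the site II word shown above, stood at 0.82 and 0.83 FPKM in WT and 4.34 and 3.89 FPKM in ibm1-3, a rise of 1.49 ± 0.14. Its libraries of 1 genotype differed little and the groups were well apart. This gene and AT1G08610 passed the filter through the ibm1-3 libraries only, and all of the highest 10 were also called with no filter on low values. RARE1 (AT5G13270), a DYW protein required for editing of plastid accD RNA, which encodes a subunit of acetyl-CoA carboxylase, stood at 1.39 and 0.98 FPKM in WT and 5.4 and 4.58 FPKM in ibm1-3, a rise of 1.46 ± 0.13. AT4G35850, whose window is also shown, stood at 7.64 and 4.11 FPKM in WT and 16.95 and 16.26 FPKM in ibm1-3, a rise of 1.41 ± 0.16. The WT libraries of this gene differed more from each other than its ibm1-3 libraries did.

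The other 5 of the highest 10 rose by 1.23 to 1.35 on the log2 scale. AT5G46460, which ends in DYW, stood at 1.04 and 0.56 FPKM in WT and 4.04 and 3.1 FPKM in ibm1-3. EMB1270 (AT3G18110), a gene named for the embryo lethality of its mutants, stood at 2 and 1.42 FPKM in WT and 6.28 and 4.78 FPKM in ibm1-3. AT1G08610, with the third of the windows above, stood at 0.92 and 0.86 FPKM in WT and 4.12 and 2.91 FPKM in ibm1-3. In each of these 3 genes both ibm1-3 libraries were above both WT libraries. AT4G18520, the plastid PPR protein PDM1, also called SEL1, stood at 3.52 and 2.53 FPKM in WT and 9.57 and 7.35 FPKM in ibm1-3, a rise of 1.23 ± 0.12. AT5G28460 stood at 4 and 1.55 FPKM in WT and 10.63 and 5.17 FPKM in ibm1-3. Its coding sequence is 99.4% identical to that of AT3G61520 and 100% identical over 95% of its length to AT5G28370, so the split of fragments among these copies is uncertain, and it did not pass without the replicate block (limma adjusted p = 0.143). The strand setting of the counting is not given, and AT5G61370, AT1G20300, AT4G35850, EMB1270 and AT1G08610 overlap another gene model, as 71 members do, so that fragments of the neighbour may be counted with them. In fits of 3 libraries without the block, 1 of these 10 genes passed without WT replicate 1, 0 without WT replicate 2, 6 without ibm1-3 replicate 1 and 9 without ibm1-3 replicate 2, with adjusted p from 0.00917 to 0.393.

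**Figure D2:**
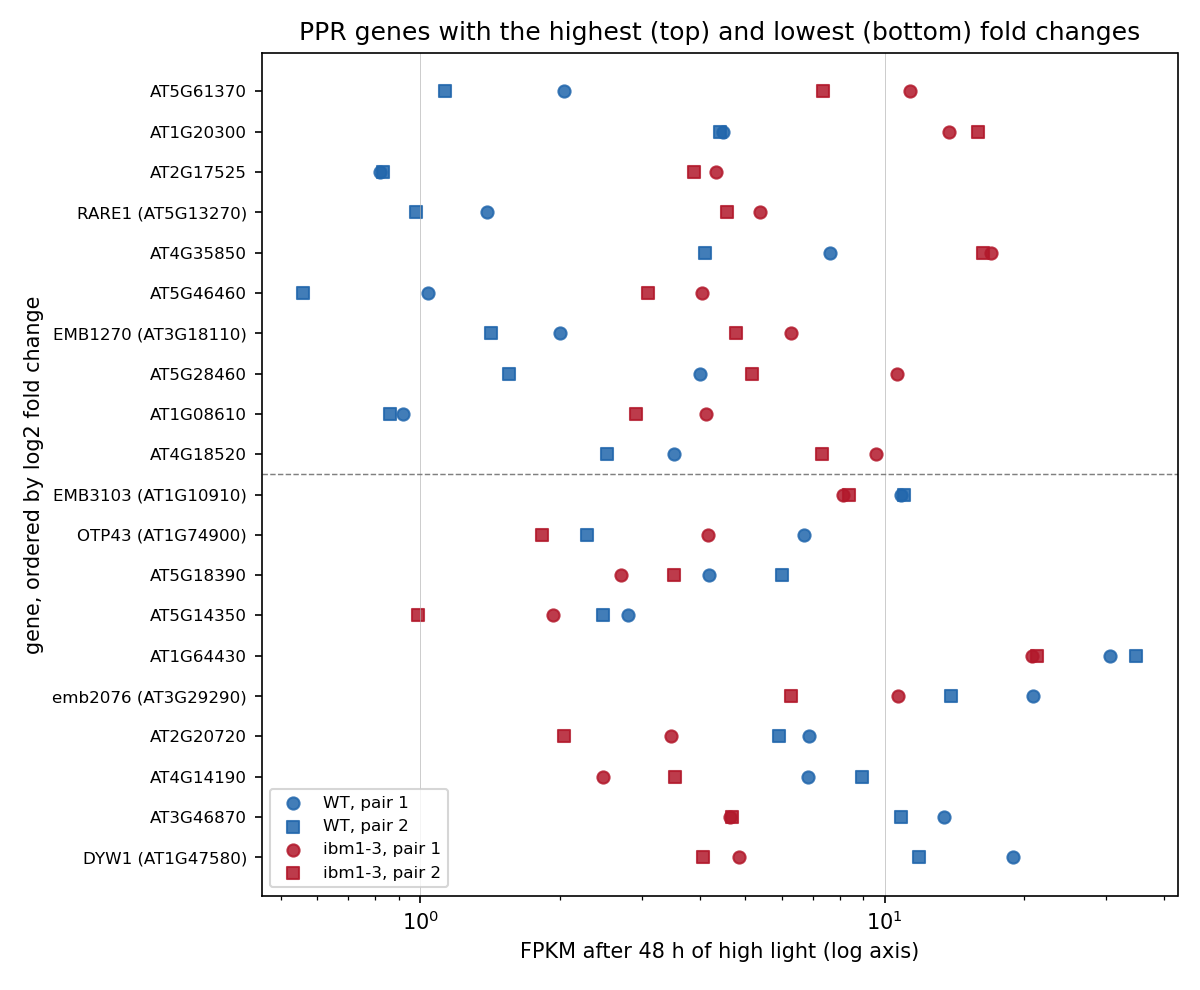
FPKM in each of the 4 high light libraries (log axis) of the 10 PPR genes with the highest and the 10 with the lowest fold changes, with WT in blue, ibm1-3 in red, pair 1 as circles and pair 2 as squares. AT5G61370 went from 2.04 and 1.13 FPKM in WT to 11.36 and 7.36 FPKM in ibm1-3, and DYW1 from 18.92 and 11.88 FPKM to 4.87 and 4.07 FPKM; the libraries of OTP43 overlap between genotypes.

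Few members fell, and 1 of them belongs to the editing class. DYW1 (AT1G47580; chromosome 1, 17485576 to 17486463) supplies the DYW domain to CRR4 for editing of the start codon of plastid ndhD RNA. It stood at 18.92 and 11.88 FPKM in WT and 4.87 and 4.07 FPKM in ibm1-3, and fell by 1.55 ± 0.13 (SE, n = 2 per genotype; limma adjusted p = 2.09e-05). Both ibm1-3 libraries were below both WT libraries. AT3G46870 stood at 13.4 and 10.87 FPKM in WT and 4.64 and 4.69 FPKM in ibm1-3, a change of -1.21 ± 0.12 on the log2 scale. AT4G14190 stood at 6.85 and 8.94 FPKM in WT and 2.48 and 3.53 FPKM in ibm1-3, a change of -1.15 ± 0.12. AT2G20720 stood at 6.89 and 5.93 FPKM in WT and 3.47 and 2.04 FPKM in ibm1-3, a change of -1 ± 0.14. In all 3 genes the genotypes did not overlap. emb2076 (AT3G29290), another gene named for embryo lethality, stood at 20.9 and 13.92 FPKM in WT and 10.67 and 6.28 FPKM in ibm1-3, a change of -0.97 ± 0.09. The other 5 of the lowest 10, AT1G64430, AT5G14350, AT5G18390, OTP43 and EMB3103, changed by -0.61 to -0.37. OTP43 (AT1G74900), which acts in splicing of mitochondrial nad1 RNA, stood at 6.7 and 2.29 FPKM in WT and 4.17 and 1.83 FPKM in ibm1-3, so its groups overlapped. Its log2 fold change was -0.40 ± 0.14, and it was 0.22 without WT replicate 1, 0.04 without ibm1-3 replicate 2 and -1.01 without WT replicate 2. AT4G14190, AT2G20720, emb2076, OTP43 and EMB3103 overlap another gene model. Without the replicate block 3 of these 10 genes passed, and without 1 library 0 passed except for 2 without ibm1-3 replicate 1, with adjusted p from 0.036 to 0.967.

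Of the 8 most abundant members 5 rose, 2 fell and 1 did not pass. Among all genes with a mean of 5 FPKM or more, 48.2% rose and 29.8% fell (78% called). AT1G64430, the most abundant, stood at 30.61 and 34.79 FPKM in WT and 20.79 and 21.29 FPKM in ibm1-3, a change of -0.61 ± 0.08. AT5G24060 stood at 36.6 and 16.46 FPKM in WT and 35.68 and 17.19 FPKM in ibm1-3, with a log2 fold change of 0.01 ± 0.07 that did not pass (limma adjusted p = 0.892) and stood at -0.3 with size factors (adjusted p = 0.0057). In this gene the pairs differed more than the genotypes. AT4G18975 changed by -0.29 ± 0.08. MRL1 (AT4G34830), which stabilises the plastid rbcL transcript of the large Rubisco subunit, stood at 15.36 and 15.13 FPKM in WT and 19.98 and 21.43 FPKM in ibm1-3, a rise of 0.42 ± 0.08. AT3G49140 rose by 0.33 ± 0.08 and AT3G59300 by 0.39 ± 0.08. With size factors MRL1, AT3G49140 and AT3G59300 stood at 0.11, 0.02 and 0.08 and did not pass (adjusted p = 0.234, 0.786 and 0.382). PNM1 (AT5G60960), a PPR protein found in mitochondria and the nucleus, stood at 12.46 and 7.76 FPKM in WT and 29.72 and 17.55 FPKM in ibm1-3, a rise of 1.14 ± 0.09 (adjusted p = 0.0973 without the replicate block). AT1G18900 stood at 9.88 FPKM in each WT library and 18.97 and 19.29 FPKM in ibm1-3, a rise of 0.89 ± 0.09. When the block was omitted, AT1G64430, AT4G18975, AT3G49140, MRL1 and AT3G59300 did not pass either (limma adjusted p from 0.0765 to 0.409). Among the 8, PNM1, AT3G59300 and AT1G18900 overlap another gene model.

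Members with a known role in editing were mostly at low levels. Of the 9 members on the list of editing factors used here, which is not complete, 5 rose, 1 fell (DYW1), 2 did not pass and 1, CRR4, was not tested. Of the 8 tested, 62.5% rose and 12.5% fell, against 49.2% and 26% of all genes tested. The share called in either direction, 75%, was near the 75.2% of all genes. SLO2 (AT2G13600), which acts in editing of mitochondrial transcripts, stood at 0.29 and 0.17 FPKM in WT and 3.14 and 2.33 FPKM in ibm1-3, a rise of 1.60 ± 0.16. MEF10 (AT3G11460), which edits mitochondrial nad2 RNA, stood at 0.44 and 0.23 FPKM in WT and 2.47 and 2.03 FPKM in ibm1-3, a rise of 1.28 ± 0.15. LOI1 (AT4G14850), the mitochondrial editing factor MEF11, stood at 0.83 and 0.86 FPKM in WT and 3.52 and 2.65 FPKM in ibm1-3, a rise of 1.14 ± 0.16. All 3 were under 1 FPKM in both WT libraries and above 2 FPKM in both ibm1-3 libraries. They thus passed the filter through the ibm1-3 libraries only, and the filtered fit could not have called them lower. OTP85 (AT2G02980), which edits plastid ndhD RNA, rose by 1.08 ± 0.15, from 0.55 and 0.6 FPKM to 2.49 and 2.17 FPKM. It too passed the filter through the ibm1-3 libraries only. LPA66 (AT5G48910), needed for editing of plastid psbF RNA, stood at 8.58 and 6.03 FPKM in WT and 7.52 and 5.76 FPKM in ibm1-3, with a log2 fold change of -0.11 ± 0.11 that did not pass, and at -0.4 with size factors (limma adjusted p = 0.00984). CRR22 (AT1G11290), which edits plastid ndhB, ndhD and rpoB RNA, stood at 1.09 and 1.11 FPKM in WT and 2.01 and 1.36 FPKM in ibm1-3 and did not pass (0.34 ± 0.16). CRR4 (AT2G45350), the partner of DYW1, stood at 0.88 and 0.59 FPKM in WT and 0.94 and 0.73 FPKM in ibm1-3. Another 4 members carry the symbol of an editing factor and were not on the list; they were added after their values were seen. MEF3 (AT1G06140) rose by 0.94 ± 0.16 and MEF29 (AT4G30700) by 0.80 ± 0.16, MEF8S (AT4G32450) had a log2 fold change of 0.17 ± 0.13 that did not pass, and REME1 (AT2G03880) was not tested. MEF3 and MEF29 also passed the filter through the ibm1-3 libraries only.

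Of 6 members with other known roles, 4 rose, 1 fell and 1 did not pass (66.7% and 16.7% called higher and lower). Of all genes tested, 49.2% rose, 26% fell and 75.2% were called in either direction. Besides PNM1, PDM1 and MRL1, BIR6 (AT3G48250), which acts in splicing of mitochondrial nad7 RNA, stood at 1.04 and 1 FPKM in WT and 2.96 and 3.44 FPKM in ibm1-3, a rise of 1.05 ± 0.15. MTL1 (AT5G64320), which acts in translation of mitochondrial nad7, stood at 1.45 and 0.94 FPKM in WT and 1.79 and 1.89 FPKM in ibm1-3, and its log2 fold change of 0.38 ± 0.16 did not pass. OTP43 fell, as given above. Wider lists of known PPR genes include genes that the annotation describes in other words. Of 33 known editing factors 23 were tested, 15 rose and 1 fell (65.2% and 4.35%), with a median of 0.47. The share called in either direction, 69.6%, was below the 75.2% of all genes. Outside the members, 3 of those that rose were OTP81 (1.33 ± 0.13), MEF18 (1.28 ± 0.15) and MEF9 (1.09 ± 0.14). Of 27 genes of processing, splicing, stability and translation 11 rose, 5 fell and 11 did not pass. Their shares, 40.7% higher, 18.5% lower and 59.3% called, were below those of all genes. The median of these genes was 0.27, close to the 0.25 of all genes. Outside the members, GUN1, which acts in signalling from plastid to nucleus, had a log2 fold change of -0.95 ± 0.06 and HCF152, which acts on plastid petB RNA, one of -0.74 ± 0.08, and the mitochondrial ribosome subunit PPR336 rose by 1.16 ± 0.09. These genes were chosen from the lists after their values were seen. MEF18, OTP86 and MEF22, like SLO2, MEF10, LOI1 and OTP85 above, passed the filter through the ibm1-3 libraries only. They could not have been called lower, so the split of the editing list is partly set by the filter.

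In the DYW class, 17 of 24 members were tested, 11 rose, 1 fell and 5 did not pass, with a median log2 fold change of 0.82. The 64.7% that rose and 5.88% that fell stand beside 49.2% and 26% of all genes, while the 70.6% called in either direction was near the background of 75.2%. Many of the class that rose, among them AT3G49710, AT3G02010, MEF10 and LOI1, passed the filter through the ibm1-3 libraries only. The filtered fit could not have called them lower, so the split of the class is partly set by the filter. Of 138 tested members with another end, 98 rose and 10 fell, with a median of 0.66, and the difference between the classes was not tested. With no filter on low values, 17 of the 24 rose and 1 fell (70.8% and 4.17%), against 42.8% and 21.4% of all genes. DYW1 was the member that fell in both fits. With at least 5 FPKM in 2 libraries, 2 of the class were left and 1, DYW1, was called, and 1 passed without WT replicate 1 and 1 without WT replicate 2.

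PPR proteins act together with other nuclear-encoded proteins of organelle RNA metabolism, of which 48 were tested in 4 lists. Of them 28 rose and 10 fell, against 49.2% and 26% of all genes tested (75.2% called in either direction). Under size factor scaling the counts were 19 and 16, where 35% of all genes were called higher and 38.9% lower. When the block was omitted 12 of the 48 passed, and 26.6% of all genes did. With 1 library left out, the median log2 fold change of the 48 ran from 0.19 without WT replicate 2 to 0.54 without ibm1-3 replicate 2. The median of all genes in these 2 fits was 0.269 and 0.21. Among 12 tested cofactors of editing, 8 rose and 2 fell (6 and 3 with size factors). ORRM3, an RNA-binding cofactor of mitochondrial editing, stood at 6.48 and 3.89 FPKM in WT and 39.43 and 29.39 FPKM in ibm1-3, a rise of 2.54 ± 0.09. MORF8, which interacts with many editing PPR proteins, stood at 55.43 and 47.68 FPKM in WT and 212.3 and 168.38 FPKM in ibm1-3, a rise of 1.86 ± 0.06. MORF1 rose by 1.14 ± 0.08, and ORRM6, a plastid cofactor, changed by -0.92 ± 0.08. Among 13 organelle RNA polymerases and proteins bound to the plastid polymerase, 9 rose and 1 fell (6 and 3 with size factors). PTAC12 rose by 1.47 ± 0.08, the iron superoxide dismutases FSD2 and FSD3 by 1.34 ± 0.14 and 1.19 ± 0.11, and RPOTMP, a phage-type polymerase of both organelles, by 1.13 ± 0.12.

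Among 12 intron splicing factors 5 rose and 4 fell (2 and 5 under size factor scaling), and the median was 0.22. Of all genes tested, 49.2% rose and 26% fell (35% and 38.9% under size factor scaling). The mitochondrial maturase NMAT1 rose by 1.33 ± 0.16 and the helicase PMH2 by 0.79 ± 0.07, and the plastid factors CFM2 and CRS1 changed by -0.71 ± 0.08 and -0.71 ± 0.09. Among 11 nucleases and RNA-binding proteins 6 rose and 3 fell (5 and 5 with size factors). CSP41B, an abundant plastid RNA-binding protein, stood at 427.06 and 672.39 FPKM in WT and 102.48 and 188.78 FPKM in ibm1-3, a change of -1.94 ± 0.07. CP31A, which stabilises plastid transcripts and acts in editing, changed by -1.06 ± 0.06 and CSP41A by -0.89 ± 0.06. CP29A rose by 1.43 ± 0.06, the plastid ribonuclease RNJ by 1.54 ± 0.09 and the mitochondrial polynucleotide phosphorylase MTPNPASE by 1.67 ± 0.14. NMAT1 and MTPNPASE passed the filter through the ibm1-3 libraries only, so the filtered fit could not have called them lower. The same libraries had lower leaf markers, as given above, and the part of these in the list was not tested.

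**Figure D3:**
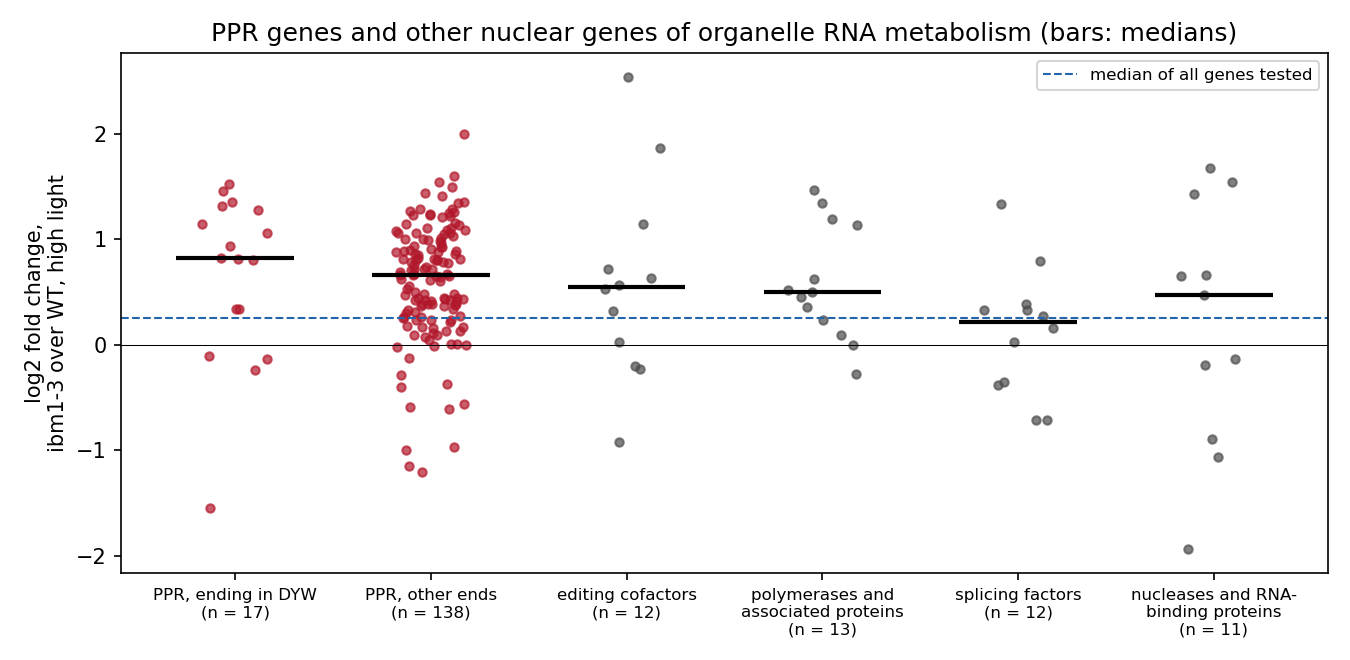
High light log2 fold change of ibm1-3 over WT of each tested PPR gene (red, split by whether the protein ends in DYW) and of each tested gene of the 4 lists of other organelle RNA proteins (grey), with black bars at the medians and a dashed line at the median of all genes tested. The medians are 0.82 and 0.66 for the PPR classes and run from 0.22 for splicing factors to 0.55 for editing cofactors, against 0.25 for all genes.

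In low light, with 1 library per genotype and no replicate check, PPR genes also stood higher in ibm1-3. The 4 leaf markers summed to 199361 reads in WT and 132004 in ibm1-3 there, and the counting intervals of all 4 lay below 0, with LHCB1.1 at a log2 ratio of -2.22. The 4 flower markers summed to 0 and 99 reads, with SEP3 listed at 0 against 79 reads, and the 6 markers of dividing cells were listed at 0 in both libraries. Their part in the low light result was not tested. Members took 0.08% of the reads in WT (12339 reads, 95% Clopper-Pearson interval 0.0786 to 0.0814%) and 0.118% in ibm1-3 (15429 reads, 0.116 to 0.12%), with a median of 31 and 41 reads. Genes under 15 reads are listed at 0, which held for 34 members in WT and 24 in ibm1-3. Among the 121 members whose reads summed to 50 or more, 15 were at least 2-fold higher and 0 at least 2-fold lower (12.4% and 0%), against 5.66% and 9.74% of all genes and 15.4% in either direction. Counting intervals of the log2 ratio lay above 0 for 55 members and below 0 for 7, against 30.6% and 32.1% of all genes, and the members' median was 0.40 against 0.01. With library totals in place of TMM factors, which raises every ratio, 27 members were at least 2-fold higher, and among members of at least 200 reads 5 were.

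The highest ratio of the members with at least 100 reads was that of AT5G02860 (chromosome 5, 654102 to 656561), with 26 WT reads and 99 ibm1-3 reads, where the log2 ratio was 1.86 (95% counting interval 1.27 to 2.59). It was also higher after high light, by 1.15 ± 0.11. AT4G02820 had 68 and 159 reads, a ratio of 1.19 (0.78 to 1.63), and rose by 1.03 ± 0.14 after high light (limma adjusted p = 0.103 without the block). The other 3 of the highest 5 did not pass after high light. LPA66 had 51 WT reads and 117 ibm1-3 reads, a ratio of 1.16 (0.69 to 1.68). MEE40 (AT3G53700), a gene named for maternal effect embryo arrest, had 95 and 222 reads, a ratio of 1.19 (0.85 to 1.56), and AT2G38420 had 32 and 77 reads, a ratio of 1.22 (0.63 to 1.88). Their high light log2 fold changes were -0.11 ± 0.11, 0.07 ± 0.11 and 0.09 ± 0.15. Among the lowest, AT3G46870 had 144 WT reads and 78 ibm1-3 reads, a ratio of -0.90 (-1.33 to -0.5), and AT2G20720 had 127 and 86 reads, a ratio of -0.58 (-1 to -0.18). Both also fell after high light. AT1G18900, with most reads of the members in WT, had 958 WT reads and 543 ibm1-3 reads, a ratio of -0.84 (-1 to -0.69), and AT1G74750 had 266 and 168 reads, a ratio of -0.69 (-0.98 to -0.4). Both rose after high light, AT1G74750 by 0.56 ± 0.12 (adjusted p = 0.0881 without the replicate block). Their coding sequences are 84.8% identical over 64.5% of the length of AT1G18900. AT1G66345 had 92 and 73 reads, a ratio of -0.36 with an interval that held 0 (-0.82 to 0.1). AT1G18900, AT1G74750, AT1G66345 and AT2G20720 overlap another gene model.

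The direction in low and high light was set side by side within each table. Of 115 members with 1 FPKM or more in both high light pairs (in at least 1 library) and 50 or more low light reads, 75 were higher in ibm1-3 in each (65.2%, against 30.6% of 15786 genes) and 5 were lower in each (4.35%, against 17%). Genes under 1 FPKM in both WT libraries enter this count only where ibm1-3 is higher in both high light pairs. The entry rule thus favours that direction among low genes. The same direction in all 3 pairs was therefore seen for 80 members (69.6%, against 47.6%). In 17 members the ratio was above 0 in both high light pairs and below 0 in low light (14.8%, against 28.1% of all genes), and in 10 it was the other way round (8.7%, against 15.9%). Among the 10 were DYW1, with 68 reads in WT and 109 in ibm1-3 in low light (0.65, 0.2 to 1.11), and emb2076, with 222 and 286 reads (0.34, 0.08 to 0.6).

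**Figure D4:**
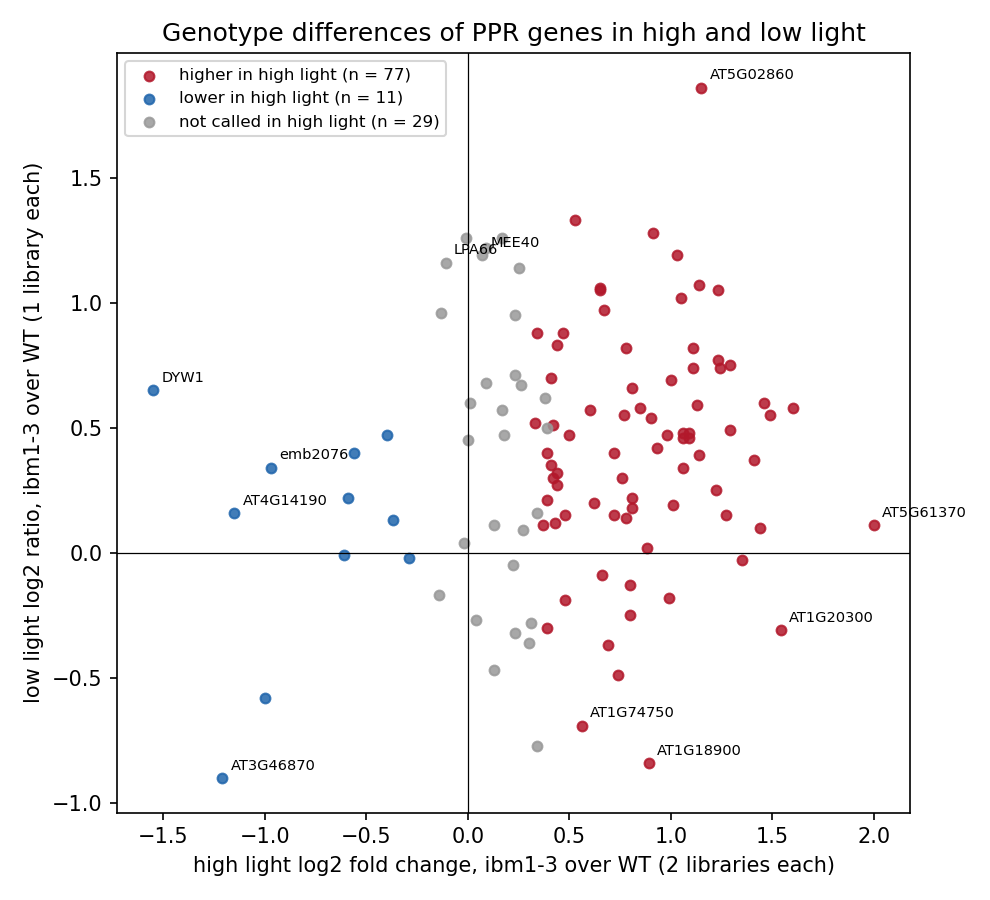
Log2 fold change after high light (2 libraries per genotype) against log2 ratio in low light (1 library per genotype) of 117 PPR genes tested in high light with at least 50 reads in low light, coloured by the high light call. In 81 genes both values are above 0 and in 5 both are below 0; DYW1 lies at -1.55 and 0.65, and AT1G18900 at 0.89 and -0.84.

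No test of the difference between the genotype effects in high and low light is used for single members, since the low light pair has 1 library per genotype and few reads for many of them. AT5G61370, the highest after high light, had 49 reads in WT and 54 in ibm1-3 in low light, and its counting interval held 0. AT1G20300 had 232 and 190 reads there, a ratio of -0.31 (-0.6 to -0.03). AT5G02860 and AT4G02820 were higher in ibm1-3 in both conditions, as given above.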

How the data were processed

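Messenger RNA of 6 libraries was given in 3 tables. The submitters' processing notes name Bowtie2 and TAIR10. Illumina and BGI library protocols were used, per the labels, without the samples each was used for. The sources used here give no counting program, strand setting or version. For high light pair 1 the deposited columns are estimated counts of fragments and FPKM, per the file headers, and for pair 2 deposited values that behave as FPKM, without counts. Entries of 0.01, given for genes with no fragment, were set to 0. For low light the deposited signal equals reads multiplied by a constant of each library: 100% of the nonzero entries divided evenly (tolerance 0.01 reads), and the smallest was 15 reads. The authors' deposited log2 ratios, p-values and q-values, and the adjusted values of pair 2 that exceed 1 and are treated as a score, were not used. The columns of pair 1 have no number and were read as replicate 1 because of the table's title. For WT replicate 2 and ibm1-3 replicate 1 the description label points to the table of the other number; sample titles were followed.

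High light values were fitted as log2(FPKM + 1) with limma 3.58.1 (trend) in R 4.3.3 over 17399 genes of at least 1 FPKM in 2 libraries, with Benjamini-Hochberg adjustment at 0.05. The replicate number, which is also the separately normalized table, was a block; deviations of same-numbered libraries from their group means had a correlation of 0.89 over genes. There were 1 residual and 6.17 prior degrees of freedom. On simulated data the share of false calls was above its nominal level, so adjusted p-values near the threshold may be optimistic. Reads of the low light pair were scaled by TMM (edgeR 4.0.16), with a prior count of 1 and 14 reads set where a gene is listed at 0. The filter on the mean FPKM was chosen after the data were examined.

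Named genes are called members of the same sign in both pairs with a mean of at least 2 FPKM (10 highest and 10 lowest), the 8 most abundant, the 5 highest and 5 lowest in low light with at least 100 reads, members with known roles and up to 4 genes of smallest p per partner list. Among nucleases and RNA-binding proteins, CSP41A and MTPNPASE were named in addition, outside this rule. The members, lists and tests were chosen with earlier results of these data known. Start and end positions of genes are as deposited, and upstream windows come from TAIR10.1, where all 187 members overlap the deposited positions. A copy means at least 90% identity over 50% of the coding sequence.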

Additional observations from a re-analysis of the deposited data

Results flagged for a closer look

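For 15 of the 42 named members, both high light pairs lay on 1 side of 0 and the low light pair on the other. Among the 15786 genes compared over all 3 pairs, 28.1% were above 0 in both high light pairs and below 0 in low light. Another 15.9% were the other way round, so such opposition is common over all genes. Many of the 42 were also picked for high or low ratios in 1 condition. The low light pair has 1 library per genotype, and the difference between the conditions was not tested in a way that covers its counting error. Age, light and normalization differ together between the tables. In 8 of the 15 the counting interval of the low light ratio left out 0. Below 0 in both high light pairs, these were LPA66 (AT5G48910) with a low light log2 ratio of 1.16, DYW1 (AT1G47580) with 0.65, AT5G18390 with 0.4 and emb2076 (AT3G29290) with 0.34. Above 0 in both high light pairs, they were AT1G18900 with -0.84, CRR22 (AT1G11290) with -0.77, AT1G74750 with -0.69 and AT1G20300 with -0.31. Of these 8, emb2076, AT1G18900, AT1G74750 and AT1G20300 overlap another gene model, so fragments of the neighbour may be counted with them.

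In the other 7 the interval held 0, so their low light direction is not settled at this depth. They were OTP43 (AT1G74900) at 0.47, AT5G14350 at 0.22, AT4G14190 at 0.16, EMB3103 (AT1G10910) at 0.13, AT5G46460 at -0.03, MEF10 (AT3G11460) at -0.27 and AT1G66345 at -0.36. LPA66 and CRR22 did not pass the high light test.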

How the results depend on the processing

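The count of PPR genes called after high light, 120, stayed within 1.5 times of itself with a pseudocount of 0.1 (120), no filter (134), size factors (94) and a mean of at least 1 FPKM over the 4 libraries (95, chosen after the data were examined). It was 32 with at least 5 FPKM in 2 libraries, where 39 members are left to test, and 56 without the replicate block. Without the block the partner lists had 12 calls of 38. Leaving out each library in turn, without the block, gave 2 to 51 calls for the PPR genes, 1 to 10 for the DYW class and 1 to 8 for the partner lists; without the block, differences between the tables enter the fits. The DYW class had 1 call with at least 5 FPKM. In low light the count of 15 was 27 with library totals and 5 with at least 200 reads. The count of members with 1 direction in all 3 pairs, 80 of 115, was 72 of 115 with median-of-ratios factors within each pair. It was 97 of 147 among members above 0 in all 6 libraries. The share over all genes was not computed for these alternatives. With size factors 83% of the calls were higher, against 90.8%, and of the partner calls 54.3% against 73.7%. OTP43 (AT1G74900) ranged from -1.01 to 0.22 with 1 library left out, turning to 0.22 without WT replicate 1 and to 0.04 without ibm1-3 replicate 2, and AT5G24060 to -0.3 with size factors; the cause was not tested. Among 41 named genes, 15 lost their call without the block and 3 with size factors, where LPA66 and AT5G24060 gained one, both below 0. A limma fit over all 3 pairs, chosen after the data were examined, called 66 of 140 members different between high and low light (9873 of 16206 genes). Its spread comes from the high light pairs and can be smaller than the counting error of low light reads, so it is not used here. Depth limits single members: a median of 30 fragments in WT in pair 1, and of 31 reads in low light.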
